A study of Mus musculus with 12 samples.

Results

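The mouse genome carries many cytochrome P450 genes beyond the families best known for drug induction and bile acid synthesis, and the accessibility of their promoters in liver is described here. Promoter records were taken whose gene symbol begins with Cyp and a digit, leaving out the Cyp3a, Cyp2b, Cyp2c and Cyp4a families and Cyp51, Cyp7a1, Cyp7b1, Cyp8b1, Cyp27a1, Cyp2e1, Cyp1a2 and Cyp2f2. For each symbol the record with the highest mean signal over all libraries was kept. This gave 59 genes from 85 promoter records, out of 25124 gene symbols in 43511 promoter records; the families left out hold another 46 P450 symbols. Open chromatin was measured by ATAC-seq, in which a transposase cuts accessible DNA, on 100000 nuclei per library from the livers of C57BL/6N males, wild type, 19 to 20 weeks old and kept on chow. The mice were gavaged for 4 days and then fasted for 12 h, so all groups share the fast. Controls received the vehicle, distilled water. The drug groups received 10 mg/kg atorvastatin, a statin that lowers cholesterol, or 100 mg/kg pregnenolone 16α-carbonitrile (PCN), an activator of the mouse pregnane X receptor. Each group had 4 libraries, 12 in all, and a pravastatin group was not analysed here. The labels do not say whether each library came from a separate mouse, so the p-values given measure the spread between these libraries.

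P450 enzymes are haem proteins that insert an oxygen atom into their substrates, with electrons passed on by cytochrome P450 reductase in the endoplasmic reticulum or by ferredoxin in mitochondria. The liver is the richest source of many of them, while others are best known from steroid-producing glands, kidney, brain, skin or the nasal epithelium. The genes described fall into groups by role. The Cyp2a, Cyp2d and Cyp2j genes oxidise drugs, steroids and unsaturated fatty acids, and several Cyp2a and Cyp2d genes differ between the sexes in mouse liver. Cyp1a1 and Cyp1b1 are classical targets of the aryl hydrocarbon receptor. The Cyp4 genes outside the Cyp4a family hydroxylate fatty acids, leukotrienes and vitamin E. Smaller groups activate and break down vitamin D (Cyp2r1, Cyp27b1, Cyp24a1), break down retinoic acid (Cyp26a1, Cyp26b1, Cyp26c1), make steroid hormones (Cyp11a1, Cyp11b1, Cyp11b2, Cyp17a1, Cyp19a1, Cyp21a1) or hydroxylate cholesterol and oxysterols (Cyp39a1, Cyp46a1).

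Promoter sequences were available for 42 of the 59 genes in RefSeq's tables for GRCm38.p6, the assembly also called mm10, each from 250 bases before to 50 bases after an annotated start, which gave 50 windows. The first 4 are shown because they are among the 10 most accessible promoters of the set and yet differ in base composition; capitals mark each CpG, the dinucleotide that clusters in CpG islands. Cyp46a1 (chr12:108334066-108334365, plus strand) and Cyp2r1 (chr7:114562923-114563222, minus strand) hold 31 and 22 CpGs in 300 bases. Cyp2d26 (chr15:82794196-82794495, minus strand) and Cyp4f15 (chr17:32685409-32685708, plus strand) hold 1 and 2.
Cyp46a1: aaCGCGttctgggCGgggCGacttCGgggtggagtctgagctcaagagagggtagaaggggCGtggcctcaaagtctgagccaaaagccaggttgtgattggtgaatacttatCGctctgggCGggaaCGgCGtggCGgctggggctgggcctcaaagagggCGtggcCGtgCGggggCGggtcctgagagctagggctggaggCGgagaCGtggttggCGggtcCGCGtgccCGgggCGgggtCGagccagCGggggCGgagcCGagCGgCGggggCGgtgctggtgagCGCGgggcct
Cyp2r1: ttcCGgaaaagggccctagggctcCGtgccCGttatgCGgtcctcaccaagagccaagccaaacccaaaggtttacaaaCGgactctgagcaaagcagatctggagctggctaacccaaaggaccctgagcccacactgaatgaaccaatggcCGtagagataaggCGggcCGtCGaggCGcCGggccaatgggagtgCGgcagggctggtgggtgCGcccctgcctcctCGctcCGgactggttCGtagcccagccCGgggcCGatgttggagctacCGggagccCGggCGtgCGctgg
Cyp2d26: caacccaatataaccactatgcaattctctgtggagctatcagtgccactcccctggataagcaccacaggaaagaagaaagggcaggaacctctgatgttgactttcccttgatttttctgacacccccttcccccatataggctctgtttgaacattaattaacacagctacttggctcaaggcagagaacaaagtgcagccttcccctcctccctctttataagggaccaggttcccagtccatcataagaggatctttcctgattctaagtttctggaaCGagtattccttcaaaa
Cyp4f15: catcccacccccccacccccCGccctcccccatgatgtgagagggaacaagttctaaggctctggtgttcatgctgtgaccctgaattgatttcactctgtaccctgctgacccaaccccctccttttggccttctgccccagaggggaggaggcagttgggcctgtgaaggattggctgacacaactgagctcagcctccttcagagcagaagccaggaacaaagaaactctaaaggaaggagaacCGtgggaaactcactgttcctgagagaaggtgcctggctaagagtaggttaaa

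The promoter of Cyp26a1 (chr19:37697558-37697857, plus strand) is shown because it holds a repeat of the kind that retinoic acid receptors bind. The search was for AGTTCA or AGGTCA followed after 5 bases by either of the same words in the same orientation, on both strands. Of all 32851 promoter windows, 0.0396% held such a pair, and Cyp26a1 was the only 1 of the 50 P450 windows. Its copy lies 32 to 16 bases before the annotated start, at chr19:37697776-37697792, and reads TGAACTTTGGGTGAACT on the plus strand; capitals mark it and a TATAAA that begins 29 bases after the start.
Cyp26a1: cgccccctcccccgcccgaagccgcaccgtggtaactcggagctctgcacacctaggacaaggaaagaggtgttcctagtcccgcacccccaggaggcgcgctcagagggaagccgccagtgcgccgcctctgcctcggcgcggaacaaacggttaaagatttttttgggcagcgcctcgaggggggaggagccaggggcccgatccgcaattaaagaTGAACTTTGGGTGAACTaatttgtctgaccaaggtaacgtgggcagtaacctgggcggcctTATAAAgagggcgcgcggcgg

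Cyp1a1 (chr9:57697363-57697662, plus strand) and Cyp1b1 (chr17:79715012-79715311, minus strand) are shown with GCGTG, the core that the aryl hydrocarbon receptor binds, in capitals on either strand. Both hold 1 copy, and 30% of the P450 windows and 32.4% of all windows hold at least 1.
Cyp1a1: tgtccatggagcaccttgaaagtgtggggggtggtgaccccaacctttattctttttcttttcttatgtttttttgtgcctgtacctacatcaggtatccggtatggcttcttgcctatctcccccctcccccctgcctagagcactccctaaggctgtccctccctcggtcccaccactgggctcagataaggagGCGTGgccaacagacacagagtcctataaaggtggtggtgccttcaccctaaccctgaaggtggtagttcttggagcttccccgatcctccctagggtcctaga
Cyp1b1: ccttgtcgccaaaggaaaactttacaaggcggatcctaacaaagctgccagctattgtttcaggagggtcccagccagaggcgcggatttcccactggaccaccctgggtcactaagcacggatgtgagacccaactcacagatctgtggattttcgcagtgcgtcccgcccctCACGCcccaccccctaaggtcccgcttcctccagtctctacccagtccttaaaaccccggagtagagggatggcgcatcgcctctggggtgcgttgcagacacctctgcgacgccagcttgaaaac

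Cyp2a4 (chr7:26306942-26307241, plus strand) and Cyp2a5 (chr7:26835089-26835388, plus strand) are shown because 294 of 300 bases, or 98.0%, are identical in their best alignment; capitals mark the bases that differ or have no partner. The next most alike pairs were Cyp2d9 and Cyp2d11 (89.0%), Cyp2a12 and Cyp2a22 (87.3%) and Cyp2d9 and Cyp2d10 (84.0%). How the counting treated reads that fit both copies is not given in the sources used here, so the values of these genes are uncertain. Cyp4x1 and Cyp4x1os had nearly the same counts in every library, with means of 5.44 and 5.37 CPM. They are counted separately here, and whether both records cover the same stretch of DNA was not tested.
Cyp2a4: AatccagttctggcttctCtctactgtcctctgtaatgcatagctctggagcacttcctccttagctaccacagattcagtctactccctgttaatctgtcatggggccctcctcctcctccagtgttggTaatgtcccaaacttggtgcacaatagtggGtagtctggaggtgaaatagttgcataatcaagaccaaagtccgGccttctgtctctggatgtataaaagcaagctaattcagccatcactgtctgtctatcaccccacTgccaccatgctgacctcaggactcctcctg
Cyp2a5: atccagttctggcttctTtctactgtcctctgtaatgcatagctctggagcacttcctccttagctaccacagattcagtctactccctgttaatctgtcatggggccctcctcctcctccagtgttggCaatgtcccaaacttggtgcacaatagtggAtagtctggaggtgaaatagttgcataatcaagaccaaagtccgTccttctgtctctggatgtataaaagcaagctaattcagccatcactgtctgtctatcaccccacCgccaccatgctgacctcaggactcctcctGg

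Library depth ranged from 1679054 counts (control 4) to 15336000.5 counts (atorvastatin 2) over all promoters. Control 3 and atorvastatin 3 stood apart: their median correlations with the other libraries across promoters were 0.729 and 0.742, against 0.924 to 0.966 for the other 10, so the fold changes named are also given without these 2. Values are CPM, counts scaled to a common promoter total in each library. Promoters of olfactory receptor genes, which are closed in liver, served as background, with medians of 1.04 to 4.67 CPM in 11 libraries and 6.90 CPM in atorvastatin 3. All 12 hepatocyte markers were found and stood above the 95th percentile of that background in at least 10 libraries; 1 had a count of 0 in some library. Their summed signal was 300.0 to 524 CPM in control, 358 to 594 CPM in atorvastatin and 432 to 584 CPM in PCN. The summed signal of 10 stellate cell markers was 67.0 to 119 CPM, 53.7 to 146 CPM and 46.7 to 88.4 CPM, and that of 9 Kupffer cell markers 59.6 to 128 CPM, 44.8 to 124 CPM and 56.6 to 88.3 CPM. Endothelial markers (8) summed to 69.7 to 122 CPM, 61.9 to 168 CPM and 53.3 to 90.8 CPM, cholangiocyte markers (6) to 47.7 to 76.4 CPM, 41.2 to 112 CPM and 39.1 to 66.4 CPM, and lymphocyte markers (8) to 39.9 to 74.5 CPM, 24.6 to 115 CPM and 32.1 to 63.0 CPM. Above the background percentile in at least 10 libraries stood 6 of 10 stellate cell, 3 of 9 Kupffer cell and 6 of 8 endothelial markers. For cholangiocytes it was 2 of 6 and for lymphocytes 1 of 8. For each of these other cell types the highest atorvastatin sum was that of atorvastatin 3, where the background was highest too. The part of background in the sums was not tested. In bulk liver, fewer cells of a type and less open chromatin per cell cannot be told apart.

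Accessibility of the P450 promoters ranged from 3.64 CPM for Cyp4f37 to 74.5 CPM for Cyp2d22 as means of 12 libraries. Their median was 12.3 CPM, against 9.72 CPM for the 46 P450 genes left out and 12.9 CPM for all genes. The promoter window is not given in the sources used here, so levels of different genes are compared on the presumption of like windows. In every library 17 of the 59 promoters (28.8%) stood above the 95th percentile of the olfactory receptor promoters, compared with 5 of 46 (10.9%) of the P450 genes left out and 35% of all genes. In the 10 libraries other than control 3 and atorvastatin 3 the numbers were 34 of 59 (57.6%), 23 of 46 (50%) and 56.1%, so the count turned on these 2 libraries, in which the percentile was 14.8 and 19.1 CPM.

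The 10 most accessible promoters came from 7 role groups. Cyp2d22, the mouse gene closest to the human drug-metabolising CYP2D6, was highest at 47.9, 63.9, 53.6 and 94.1 CPM in control, 54.5, 97.9, 75.5 and 73.5 CPM in atorvastatin and 67.4, 102, 69.5 and 94.4 CPM in PCN. Cyp2d13 followed at 65.99 CPM, a mean that lay above 95.8% of all genes. Cyp46a1, the cholesterol hydroxylase best known from neurons, was next with 54.3, 53.2, 90.4 and 47.1 CPM in control, 60.2, 55.6, 47.4 and 55.1 CPM in atorvastatin and 50.9, 49.7, 74.6 and 58.2 CPM in PCN. Its highest value by far was that of control 3, and the other 11 libraries lay between 47.1 and 74.6 CPM. Cyp2r1, the main vitamin D hydroxylase of liver, averaged 52.9 CPM, with 38.8, 44.6, 34.6 and 61.3 CPM in control, 56.9, 69.2, 48.7 and 58.9 CPM in atorvastatin and 56.4, 61.8, 56.5 and 47.6 CPM in PCN. Next were Cyp2d26 (49.9 CPM), Cyp26a1 (44.5 CPM), the orphan Cyp20a1 (42.6 CPM), Cyp2d40 (40.2 CPM), Cyp2j5 (34.9 CPM), an epoxygenase of arachidonic acid, and Cyp4f15 (34.7 CPM). Neighbours in this order differed by less than the range of either gene's 12 libraries. At the low end Cyp4f37, Cyp4b1-ps2, Cyp2a4, Cyp2j12 and Cyp2j8 had means of 3.64 to 4.65 CPM and stood above the background percentile in at most 1 library.

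**Figure D1:**
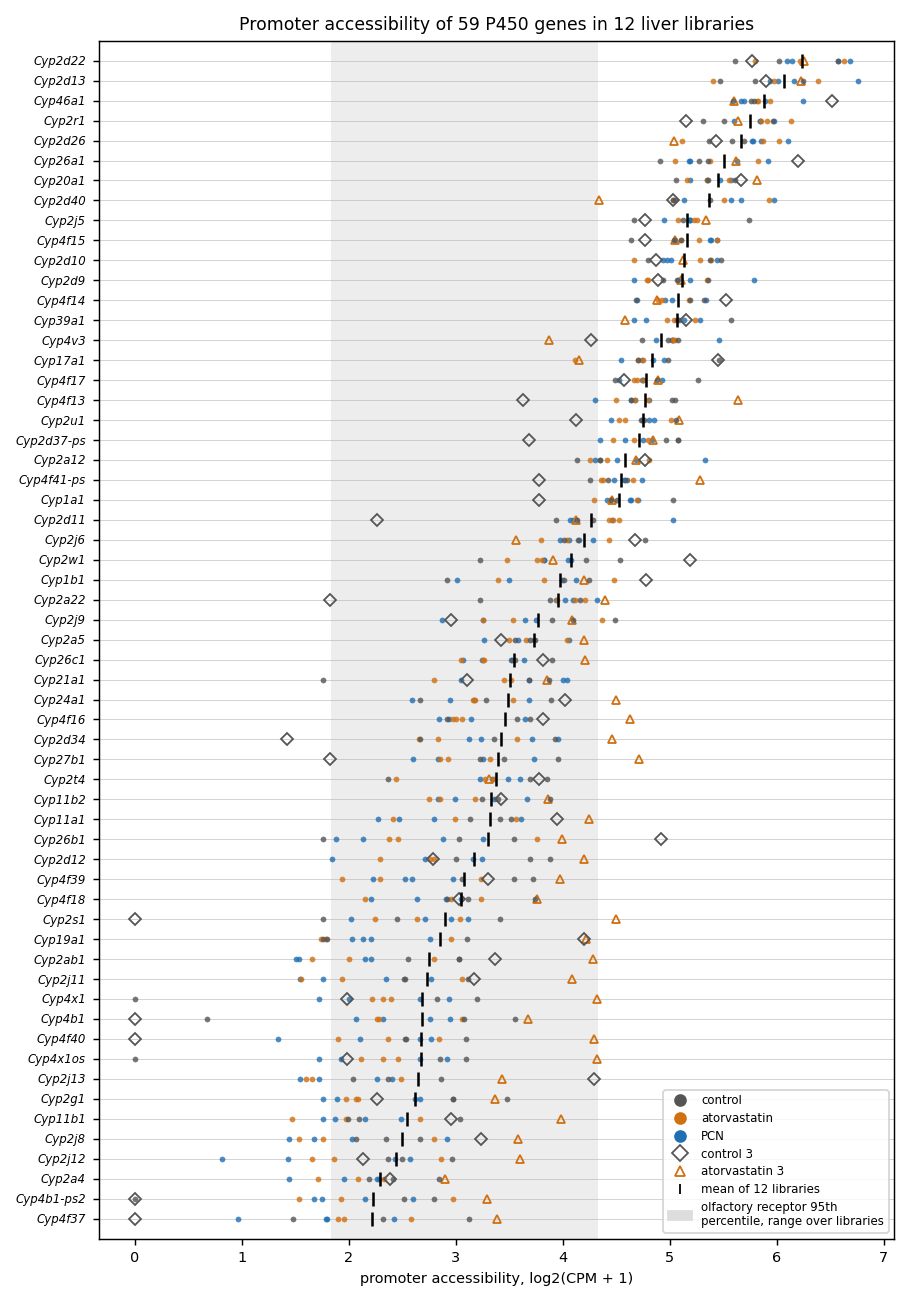
Promoter accessibility as log2(CPM + 1) for the 59 P450 genes, ordered by mean, with 1 point per library coloured by group, open symbols for control 3 and atorvastatin 3 and a black bar for the mean CPM of 12 libraries. The grey band spans the 95th percentile of olfactory receptor promoters over the 12 libraries (2.56 to 19.1 CPM); all points of the 10 genes from Cyp2d22 to Cyp4f15 lie to its right, and the open triangle of atorvastatin 3 is the rightmost point of most genes at the bottom.

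Promoters of like accessibility differed widely in CpG content. Across the 37 P450 genes with a single annotated start and a sequence, Spearman's rho between the CpG observed-to-expected ratio and mean CPM was 0.11, compared with 0.05 across 34 of the P450 genes left out and 0.68 across 15631 genes, all with 1 start. These are descriptions across genes of the same libraries, which are not independent replicates. A ratio of at least 0.6 was found in 6 of the 37 (16.2%), in 1 of those 34 (2.94%) and in 35.8% of all windows. Those 6 were Cyp46a1, Cyp26a1, Cyp4v3, Cyp2r1, Cyp20a1 and Cyp1b1, of which all but Cyp1b1 had a mean of 20 CPM or more. The CpG-poor promoters shown above for Cyp2d26 and Cyp4f15 reached 49.9 and 34.7 CPM with ratios of 0.067 and 0.089. A TATAAA starting 40 to 20 bases before the start was present in 6 of 50 P450 windows (12%), from Cyp1a1, Cyp2a4, Cyp2a5, Cyp2a12, Cyp2a22 and Cyp19a1, against 1.99% of all windows. With 1 start it was in 5 of 37 (13.5%), and in 6 of the 34 P450 genes left out (17.6%).

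**Figure D2:**
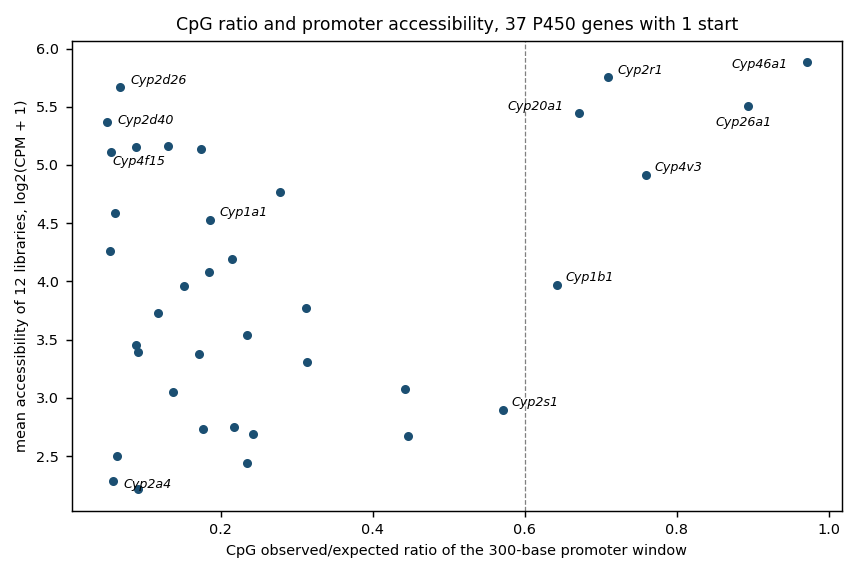
CpG observed-to-expected ratio of the 300-base promoter window against mean accessibility as log2(CPM + 1), 1 point for each of 37 P450 genes with a single annotated start. The dashed line marks a ratio of 0.6. Points to its left run from 3.64 CPM (Cyp4f37) to 49.9 CPM (Cyp2d26). Of the 6 points at or beyond the line, 5 lie in the upper part.

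PCN was compared with vehicle to ask whether activation of the pregnane X receptor is accompanied by changes at these promoters. No P450 promoter passed the threshold: 0 of 59 had an adjusted p under 0.05 by the quasi-likelihood test of edgeR, adjusted after Benjamini and Hochberg over all promoters (smallest adjusted p = 0.918), and DESeq2 and limma-voom also called 0. Over all 41908 promoters 0% passed. At an unadjusted p under 0.05, 2 P450 promoters were higher in PCN (3.39% of 59; 1.87% of all promoters) and 0 were lower (1.88% of all). The log2 fold change was above 0 for 29 of 59, compared with 51% of all promoters and 47.8% of all genes with 1 promoter each. Its median was -0.02 for the 59 and 0.01 for all promoters. Without control 3 and atorvastatin 3 it was above 0 for 24 of 59 (48.3% of all promoters), 0 of 59 passed (0.0143% of all), and 5 were higher (2.93%) and 2 lower (1.58%) at an unadjusted p under 0.05. Scaling by library totals alone moved the median of all promoters by -0.11, from 0.01 to -0.10, and left 20 of 59 above 0 (38.4% of all promoters).

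Direction followed the level of the promoter, in these genes as in all genes. Split after the values were seen, 19 of the 23 P450 promoters with a mean of at least 20 CPM had a PCN log2 fold change above 0 (82.6%, against 78.4% of all genes at that level). Of the 10 at 10 to 20 CPM, 4 did (40% against 40.7%), and of the 26 under 10 CPM, 6 did (23.1% against 21.3%). With offsets fitted to the trend with abundance, the shares were 11 of 23, 4 of 10 and 10 of 26, and those of all genes 47.4%, 49.1% and 46.1%.

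Over the 23 settings tried, 17 of the 59 promoters kept a PCN difference above 0 and 21 one below 0. The first set held Cyp2d9, Cyp2d11, Cyp2d13, Cyp2d22, Cyp2d26, Cyp2d34 and Cyp2d40 of the Cyp2d genes, Cyp2a5, Cyp2a12 and Cyp2a22, and Cyp2r1, Cyp4f15 and Cyp4v3 among others. The second held Cyp2j8, Cyp2j9, Cyp2j11, Cyp2j12 and Cyp2j13, the steroid genes Cyp11a1, Cyp11b1, Cyp17a1 and Cyp19a1, and Cyp24a1, Cyp26b1 and Cyp26c1 among others. Most of the first set had means of at least 20 CPM, where most genes were above 0. All of the second but Cyp17a1 had lower means, where most genes were below 0. With atorvastatin 9 stayed above 0 and 11 below, and for PCN against atorvastatin 12 and 15. The settings share libraries, and the same was not counted over all promoters, so these numbers are descriptions.

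Of the Cyp2d genes, 8 of 10 were above 0 with PCN, with a median log2 fold change of 0.47, or 7 of 10 and 0.30 without the 2 libraries. Their median level was 33.9 CPM, and of the 7 with a mean of at least 20 CPM 6 were above 0, near the 78.4% of all genes at that level. Cyp2d11 had 18.4, 16.5, 3.80 and 14.3 CPM in control, 20.5, 21.1, 16.4 and 22 CPM in atorvastatin and 20.99, 31.7, 15.8 and 16.1 CPM in PCN. The low value of control 3 is far below the rest, and the remaining control and PCN values overlap. Its fitted difference was 0.72 ± 0.32 (SE, log2; edgeR, adjusted p = 0.918) and 0.43 ± 0.20 without the 2 libraries. Cyp2d40 showed 32.02, 40.4, 31.7 and 31.6 CPM in control, 31.7, 59.7, 19.3 and 44.4 CPM in atorvastatin and 49.7, 61.9, 34.1 and 46.6 CPM in PCN. Its PCN values exceeded control except for PCN 3, which lay inside the control range, and the difference was 0.60 ± 0.30 (0.56 ± 0.22 without the 2 libraries). Cyp2d26 was the only P450 promoter with all 4 PCN libraries above all 4 controls (1.25% of all promoters), at 57.9 ± 6.71 CPM (SD, n = 4) against 44.99 ± 4.71 CPM. Cyp2d10, at 26.8, 40.6, 28.3 and 43.5 CPM in control and 31.2, 42.4, 29.5 and 30.3 CPM in PCN, and Cyp2d9, a hydroxylase of testosterone that prevails in male mice, at 29.5, 40.0, 28.7 and 32.5 CPM and 35.4, 54.3, 24.5 and 32.8 CPM, overlapped throughout.

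Among the other drug- and steroid-oxidising genes, Cyp2a12, a bile acid hydroxylase of mouse liver, had 19.4, 16.5, 26.2 and 19.4 CPM in control, 18.02, 27.03, 24.6 and 20.3 CPM in atorvastatin and 24.7, 39.3, 18.8 and 21.8 CPM in PCN. The fitted PCN difference was 0.48 ± 0.25, and 0.62 ± 0.19 without the 2 libraries, the smallest p of the 59 in that fit. Control 3 was the highest control, and PCN 2 the highest of all libraries. Cyp2a22 differed by 0.68 ± 0.34 with 13.7, 16.9, 2.53 and 8.34 CPM in control and 15.2, 16.1, 14.3 and 18.99 CPM in PCN, and by 0.36 ± 0.22 without the 2 libraries; control 3 was the lowest of the 12. The coumarin hydroxylase Cyp2a5 was at 9.71 to 12.3 CPM in control and 8.58 to 15.7 CPM in PCN, and its near-identical neighbour Cyp2a4 at 3.57 to 6.19 and 1.72 to 3.87 CPM. Cyp2j genes, epoxygenases of unsaturated fatty acids, had 1 of 7 members above 0, with a median of -0.53 (-0.48 without the 2 libraries) at a median level of 5.63 CPM. The other 6 had means under 20 CPM, where most genes lay below 0. The single member above 0 was Cyp2j5 with 24.4, 33.9, 26.2 and 52.4 CPM in control, 32.7, 36.5, 39.3 and 37.1 CPM in atorvastatin and 35.3, 35.4, 29.8 and 35.5 CPM in PCN. Cyp2j13 had a difference of -1.26 ± 0.66, which became -0.48 ± 0.58 without the 2 libraries; control 3 held 18.6 CPM and the other controls 3.11 to 6.29 CPM.

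Cyp4f15, of the leukotriene- and fatty acid-hydroxylating Cyp4f genes, had the smallest p of the set in this comparison. Its promoter held 23.9, 33.4, 26.2 and 31.9 CPM in control, 33.4, 37.6, 32.1 and 42.5 CPM in atorvastatin and 42.3, 40.4, 32.1 and 40.7 CPM in PCN. PCN 1, PCN 2 and PCN 4 were above every control, and PCN 3 lay within the control range. The difference was 0.54 ± 0.22 (edgeR, adjusted p = 0.918), with a 95% interval of 0.10 to 0.97 by a normal approximation. Without the 2 libraries it was 0.51 ± 0.20. Across the 15 Cyp4 genes, 9 were above 0, or 5 without the 2 libraries; the 5 all had means of at least 20 CPM. Cyp4f39, which makes skin lipids in epidermis, was lower in all 4 PCN libraries (6.84, 5.03, 3.69 and 4.77 CPM) than in any control (10.7, 7.35, 8.87 and 12.2 CPM), with a difference of -0.84 ± 0.52 (-0.86 ± 0.45 without the 2 libraries). The same held for Cyp2ab1, a little-studied CYP2 gene, with 3.45, 1.85, 1.90 and 3.63 CPM in PCN and 7.15, 4.87, 9.29 and 7.15 CPM in control and a difference of -1.28 ± 0.64 (-1.11 ± 0.56 without the 2 libraries). These were the 2 P450 promoters with PCN wholly below control (1.9% of all promoters), and both lie in the range of the olfactory receptor background. Without the 2 libraries the lower set grew to 5 (4.26% of all) with Cyp2d37-ps, Cyp2g1 and Cyp2j9, while the higher set stayed at Cyp2d26 (2.18% of all).

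Of the 12 genes of steroid hormone, vitamin D and retinoic acid metabolism, 3 were above 0 with PCN, with and without the 2 libraries. By level these were 2 of 3 at 20 CPM or more (78.4% of all genes), 1 of 3 at 10 to 20 CPM (40.7%) and 0 of 6 under 10 CPM (21.3%), so most of the group lay at levels where most genes were below 0. Of the 6 steroid hormone genes, 1 was above 0 (Cyp21a1), with a median of -0.40 (-0.15 without the 2 libraries). Cyp11a1, which starts steroid synthesis by cutting the cholesterol side chain, differed by -0.64 ± 0.47 (-0.47 ± 0.40 without the 2 libraries), from 9.63, 10.5, 14.4 and 7.74 CPM in control to 11.2, 5.95, 4.54 and 3.82 CPM in PCN. Cyp26b1, which breaks down retinoic acid, differed by -1.13 ± 0.59 with all libraries and -0.36 ± 0.45 without the 2; control 3 held 29.1 CPM and the other controls 2.38 to 10.7 CPM. Its homologue Cyp26a1 was at 29.1, 37.8, 72.2 and 39.9 CPM in control, 32, 55.5, 48.1 and 40.6 CPM in atorvastatin and 35.5, 59.5, 35.2 and 48.6 CPM in PCN, so that control 3 was the highest of all 12 libraries and control 1 the lowest.

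**Figure D3:**
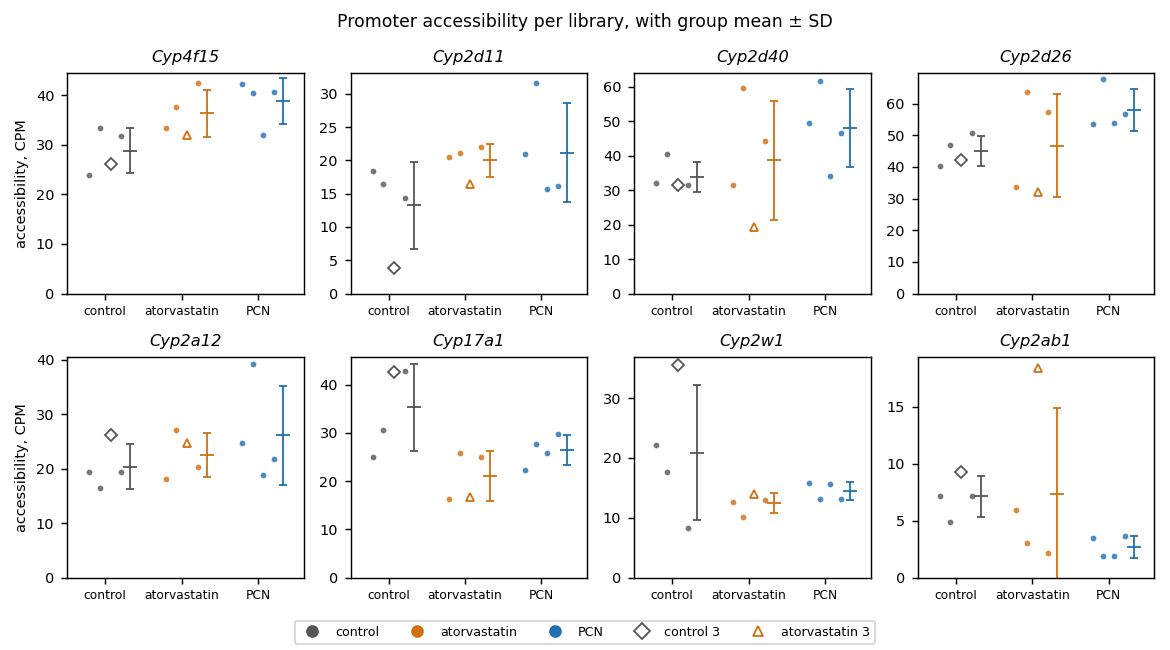
CPM per library for 8 promoters, with 1 point per library, open symbols for control 3 and atorvastatin 3 and the group mean ± SD (n = 4) beside the points; the lower atorvastatin bar of Cyp2ab1 ends at the axis. In the panel of Cyp2d26 all PCN points lie above the control points, in that of Cyp2ab1 all lie below them, and in that of Cyp2w1 the open diamond of control 3 is the highest point at 35.5 CPM.

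Atorvastatin was compared with vehicle in the same fit, and shares its control libraries with the comparison above. Again 0 of 59 P450 promoters passed (same edgeR test and adjustment, smallest adjusted p = 1.00; 0 by limma-voom and DESeq2; 0% of all promoters by edgeR). At an unadjusted p under 0.05, 0 were higher (1.06% of all promoters) and 2 lower (0.866%). The fold change was above 0 for 36 of 59, or 61%, against 57.3% of all promoters and 56.8% of all genes with 1 promoter each. Leaving out the 2 libraries gave 21 of 59 (47.8% of all) and 0 passing (0.00954%), with 4 promoters higher (2.27%) and 2 lower (1.54%) at p under 0.05. Atorvastatin 3 was the highest of the 12 libraries for 29 of the 59 P450 promoters, 21 of them with means under 10 CPM, and for 33.4% of all genes. In that library the median of the olfactory receptor promoters was also the highest. With it left out 28 of 59 were above 0 (50.6% of all promoters), and limma-voom, which weights counts by their precision, placed 25 of 59 above 0 with all 12 (40.1%).

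The lower promoters were Cyp17a1 and Cyp2w1. Cyp17a1, which makes precursors of sex steroids, had 24.97, 30.6, 42.7 and 42.9 CPM in control, 16.4, 25.9, 16.7 and 25.1 CPM in atorvastatin and 22.4, 27.6, 25.8 and 29.8 CPM in PCN. Control 1 lay below atorvastatin 2 and 4, so the groups overlap. The difference was -0.63 ± 0.26 (edgeR, adjusted p = 1.00), with a 95% interval of -1.14 to -0.12 by a normal approximation. Without the 2 libraries it was -0.32 ± 0.20. Cyp2w1, best known from fetal gut and tumours, had 22.1, 17.6, 35.5 and 8.34 CPM in control, 12.6, 10.1, 14.1 and 13 CPM in atorvastatin and 15.9, 13.1, 15.6 and 13.2 CPM in PCN. The controls ranged widely, with control 3 highest and control 4 below every atorvastatin library; the difference was -0.69 ± 0.30 and -0.40 ± 0.24 without the 2 libraries. Cyp2j6 differed by -0.39 ± 0.27 and, without the 2 libraries, -0.08 ± 0.22; it was at 16.6, 15.1, 24.5 and 26.2 CPM in control and 20.5, 15.5, 10.9 and 12.9 CPM in atorvastatin. Cyp2j13 (-0.79 ± 0.65) and Cyp2t4 (-0.42 ± 0.41) completed the 5 lower promoters of smallest p, with -0.59 ± 0.62 and -0.42 ± 0.36 without the 2 libraries. Cyp2t4 was at 4.17 to 13.5 CPM in control and 4.43 to 9.25 CPM in atorvastatin.

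On the higher side the 5 promoters of smallest p were Cyp2a22 (0.69 ± 0.34), Cyp4f41-ps (0.47 ± 0.23), Cyp2d11 (0.62 ± 0.32), Cyp4f15 (0.41 ± 0.22) and Cyp2r1 (0.45 ± 0.25), as log2 differences ± SE. Without the 2 libraries these were 0.36 ± 0.23, 0.17 ± 0.19, 0.47 ± 0.20, 0.49 ± 0.21 and 0.49 ± 0.25. For Cyp4f15 all 4 atorvastatin values lay above the control mean of 28.8 ± 4.51 CPM (SD, n = 4), and 1 of them, the 32.1 CPM of atorvastatin 3, was below the highest control. The pseudogene Cyp4f41-ps had 20.5, 18.04, 12.7 and 23.2 CPM in control and 24.2, 19.4, 37.8 and 19.7 CPM in atorvastatin, with the highest value in atorvastatin 3. Cyp2r1 had 3 of 4 atorvastatin libraries between 56.9 and 69.2 CPM, against 34.6 to 61.3 CPM in control. Promoters whose atorvastatin and control values did not overlap numbered 0 in either direction with 12 libraries (0.453% higher and 0.78% lower among all promoters). With 10 libraries they were Cyp2d11, Cyp46a1 and Cyp4f15 above control (2.77% of all) and Cyp11b2, Cyp26c1, Cyp2d12, Cyp2d37-ps and Cyp2g1 below (5.1%).

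By role, 8 of 10 Cyp2d genes and 11 of 15 Cyp4 genes were above 0 with atorvastatin, with medians of 0.19 and 0.41. Without the 2 libraries 7 of 10 and 4 of 15 were, with medians of 0.16 and -0.25. The Cyp4 genes near the background, among them Cyp4b1, Cyp4x1, Cyp4f40 and Cyp4f37, had their highest value in atorvastatin 3. For Cyp4b1 that was 11.8 CPM, with 7.35, 3.82 and 3.86 CPM in the other atorvastatin libraries. All 3 vitamin D genes were above 0 with 12 libraries and 1, Cyp2r1, with 10. Cyp27b1, which activates vitamin D in kidney, held 25.3 CPM in atorvastatin 3 and 6.20 to 9.01 CPM in the rest of the group. By level, 17 of 23 promoters at 20 CPM or more were above 0 (63.2% of all genes at that level), 5 of 10 at 10 to 20 CPM (49.5%) and 14 of 26 under 10 CPM (53.5%); without the 2 libraries these were 16 of 23 (82.3%), 4 of 10 (36.2%) and 1 of 26 (10.3%).

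PCN and atorvastatin were also compared with each other. In the edgeR fit 0 of 59 promoters passed after adjustment (smallest adjusted p = 1.00; 0 by DESeq2 and limma-voom; 0% of all promoters). At an unadjusted p under 0.05, 0 were higher in PCN (0.043% of all) and 1 lower (0.687%), which was Cyp2ab1 at -1.29 ± 0.62. Its atorvastatin values were 5.93, 3.00, 18.4 and 2.16 CPM, of which that of atorvastatin 3 lay far above the rest, and without the 2 libraries the difference was -0.37 ± 0.56. The fold change was above 0 for 23 of 59 (47.9% of all promoters) and for 39 without atorvastatin 3. Without control 3 and atorvastatin 3 it was above 0 for 40 (52.8%), and by limma-voom for 26 (62.1%). Of all genes with 1 promoter each, 44.4% were above 0 with 12 libraries, 53.6% without those 2 and 60.1% by limma-voom. Promoters without overlap numbered 0 in either direction (0.296% higher and 0.208% lower among all), and with 10 libraries 1 higher (Cyp2w1; 0.673% of all) and 0 lower (0.661%).

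The promoters of smallest p on the higher side were Cyp17a1 (0.35 ± 0.25), the fatty acid hydroxylase Cyp4v3 (0.33 ± 0.27), Cyp2d26 (0.32 ± 0.27), Cyp2d9 (0.24 ± 0.24) and Cyp2a12 (0.24 ± 0.24). Without the 2 libraries these were 0.18 ± 0.18, 0.08 ± 0.18, 0.13 ± 0.23, 0.20 ± 0.19 and 0.20 ± 0.18. For Cyp17a1 the PCN values, 22.4, 27.6, 25.8 and 29.8 CPM, lay above the atorvastatin mean of 21.01 ± 5.17 CPM (SD, n = 4) in all 4 libraries, and the ranges overlapped. Cyp4v3 had 32, 31.6, 13.7 and 31.8 CPM in atorvastatin, where only atorvastatin 3 was low, and 31.4, 42.99, 31.5 and 28.2 CPM in PCN. On the lower side, after Cyp2ab1, came Cyp2j11 (-0.85 ± 0.61), Cyp24a1 (-0.52 ± 0.41), Cyp11b1 (-0.77 ± 0.63) and Cyp4f40 (-0.86 ± 0.72). Each of these had its highest atorvastatin value in atorvastatin 3, at 16.02, 21.6, 14.8 and 18.6 CPM. In the fit of 10 libraries their differences were -0.09 ± 0.54, -0.16 ± 0.34, 0.06 ± 0.56 and -0.08 ± 0.51, so that of Cyp11b1 turned to above 0.

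**Figure D4:**
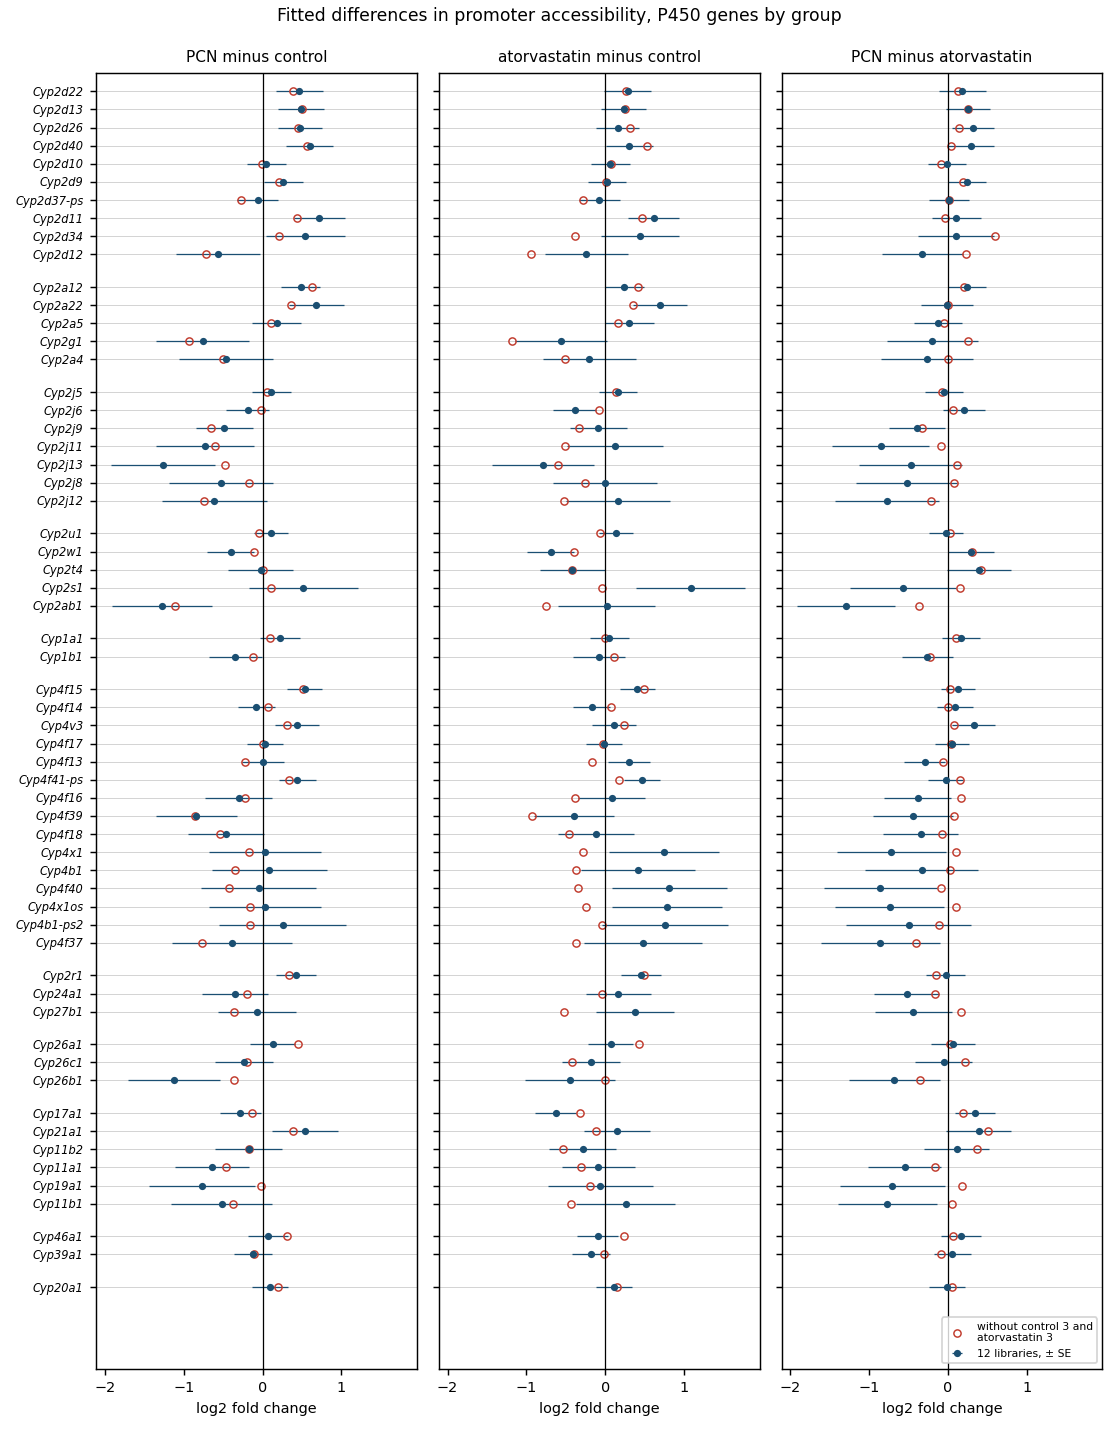
Fitted log2 fold changes of the 59 P450 promoters in the 3 comparisons, grouped by role and ordered by level within a group; filled points with bars are the fit of 12 libraries ± SE, and open circles the fit without control 3 and atorvastatin 3. Most bars reach or cross 0, and in the middle and right panels open and filled points lie on different sides of 0 for many of the low Cyp4 genes.

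Most members of the smaller groups had low values in every condition. Cyp1a1, the most strongly inducible target of the aryl hydrocarbon receptor, was at 20.8, 21.8, 12.7 and 31.6 CPM in control, 20.7, 24.8, 21.1 and 18.6 CPM in atorvastatin and 23.8, 23.9, 20.3 and 25 CPM in PCN. These groups overlap, and control 4 was the highest and control 3 the lowest of the 12. Cyp1b1 was at 6.55 to 26.4 CPM in control, 9.53 to 21.2 CPM in atorvastatin and 7.09 to 16.4 CPM in PCN. In the vitamin D group, Cyp24a1, which breaks down active vitamin D, was at 5.36 to 15.2, 7.94 to 21.6 and 5.04 to 11.9 CPM, and Cyp27b1 at 2.53 to 14.5, 6.20 to 25.3 and 5.06 to 12.3 CPM, both far below Cyp2r1. In the retinoic acid group Cyp26a1 was highest in every library, and it averaged 44.5 CPM against 10.7 CPM for Cyp26c1 and 8.88 CPM for Cyp26b1.

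The steroid hormone genes ranged from Cyp17a1 at 27.6 CPM to Cyp11b1, the last step of corticosterone synthesis, at 4.85 CPM. Cyp17a1 stood above the background percentile in 11 of 12 libraries, Cyp21a1 in 9, Cyp11a1 in 9 and aromatase, Cyp19a1, in 1. Cyp19a1 was at 7.62, 2.48, 17.3 and 2.38 CPM in control, with control 3 again far above the others. Cyp39a1, a hydroxylase of oxysterols in liver, was at 33.02, 32.5, 34.6 and 46.5 CPM in control, 31.8, 36.7, 22.98 and 30.4 CPM in atorvastatin and 34, 26.5, 37.8 and 24.3 CPM in PCN, and overlapped between all groups. Cyp2u1, a hydroxylase of long-chain fatty acids, was at 16.5 to 32.9 CPM over the 12 libraries, Cyp4f14, which hydroxylates vitamin E, at 24.7 to 45.2 CPM, and Cyp4f13 at 11.4 to 48.9 CPM. Cyp20a1, whose substrate is unknown, kept to 32.3 to 55.3 CPM.

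The spread between libraries of a group, as the pooled SD of log2 CPM, had a median of 0.48 over the 59 promoters and ran from 0.23 (Cyp2a5) to 1.11 (Cyp4f40). Without control 3 and atorvastatin 3 the median was 0.41. The 5 widest were Cyp4f40, Cyp4b1, Cyp2s1, Cyp4b1-ps2 and Cyp19a1, and their SDs of 1.11, 1.07, 1.04, 0.98 and 0.98 became 0.52, 0.81, 0.50, 0.87 and 0.61 without the 2 libraries. Cyp2s1, an epithelial P450, had a count of 0 in control 3, which allows up to 1.27 CPM there (3 counts; counting error only), and 21.6 CPM in atorvastatin 3. Cyp4f40, Cyp4b1, Cyp4b1-ps2 and Cyp4f37 also had 0 counts in control 3, and Cyp4x1, Cyp4x1os and Cyp4b1-ps2 in control 4, where 0 allows up to 1.79 CPM.

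Distal elements near the genes were read from the enhancer table, with each region assigned to the nearest protein-coding gene body within 50 kb. Of the 54 protein-coding P450 genes, 52 had at least 1 region, 911 regions in 346 separate loci, of which 519 regions in 105 loci passed the count filter. Regions overlap one another (690 of 911), so they are not independent. In no comparison did any of the 519 pass (edgeR's quasi-likelihood test, smallest adjusted p = 1.00 after Benjamini-Hochberg, 0 also by DESeq2 and limma-voom; 0% of all 182115 regions tested). At an unadjusted p under 0.05, 11 were higher and 1 lower with PCN (1.24% and 0.683% of all regions), 22 higher and 2 lower with atorvastatin (1.71% and 0.683%), and 1 higher and 1 lower in PCN against atorvastatin (0.062% and 0.403%). In the fit of 10 libraries, again with 0 passing (0% of all), these were 35 and 15 of 547 with PCN (4.14% and 3.58%), 8 and 11 with atorvastatin (3.06% and 2.46%) and 5 and 9 in PCN against atorvastatin (1% and 0.929%). With 12 libraries the values of 18 regions lay wholly above and 1 wholly below control with PCN (3.99% and 0.817% of all regions), 12 and 2 with atorvastatin (1.32% and 0.729%), and 10 above and 9 below in PCN against atorvastatin (1.72% and 0.514%). With PCN 352 of 519 were above 0 (67.8%, against 62% of all regions), and without the 2 libraries 356 of 547 (65.1% against 51.3%), with medians of 0.18 for the P450 regions and 0.02 for all. With offsets fitted to the trend with abundance the PCN share was 49.7%, against 43.4% of all regions. For atorvastatin 58.4% were above 0, as for all regions, and for PCN against atorvastatin 59.2% against 55.4%; without the 2 libraries these were 59.4% against 50.9% and 61.8% against 50.5%.

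By the mean of 12 libraries, the most accessible of these regions lay 16365 bases from the Cyp2d10 gene body at chr15:82423619-82423811, at 22.3 CPM. Control 3 held 45.1 CPM there and the other libraries 11.3 to 34.3 CPM. By its width this region belongs to the class that follows control 3. Others among the 6 most accessible loci lay within the gene bodies of Cyp4f13 (chr17:32924756-32924948, 21.6 CPM) and Cyp17a1 (chr19:46668354-46668536, 14.6 CPM), and 22876 bases from Cyp24a1 (chr2:170459898-170460080, 21.2 CPM). Coordinates are mm10 as deposited. The region of smallest p for PCN was chr15:82423052-82423170, 15798 bases from Cyp2d10, at 5.17, 8.42, 5.23 and 3.58 CPM in control, 5.80, 9.25, 8.72 and 7.87 CPM in atorvastatin and 8.08, 13.9, 7.61 and 19.4 CPM in PCN. PCN 2 and PCN 4 were the highest of all 12 libraries and the other PCN values fell within the range of atorvastatin. By its width this region belongs to the class that follows PCN 4. The difference from control was 1.14 ± 0.44 (edgeR, adjusted p = 1.00), and 0.95 ± 0.34 without the 2 libraries. A region 2105 bases from Cyp2d9, chr15:82450189-82450271, was higher in all PCN than in all control libraries, by 1.48 ± 0.63 (1.08 ± 0.38 without the 2 libraries), at 2.90, 3.57, 0 and 2.39 CPM in control, 4.87, 5.39, 6.37 and 3.43 CPM in atorvastatin and 5.97, 7.29, 4.33 and 10.0 CPM in PCN; the 0 in control 3 allows up to 1.96 CPM. It was 1 of the 18 regions of that kind.

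The lower regions of smallest p with PCN lay near Cyp26c1 and within Cyp4f17. At chr19:37694074-37694266, 753 bases from Cyp26c1, control 3 held 20.9 CPM and the other 11 libraries at most 2.79 CPM. This region has the width of the control 3 class. The differences were -2.58 ± 1.07 for PCN and -2.40 ± 1.06 for atorvastatin, and -1.24 ± 0.88 and -0.77 ± 0.91 without the 2 libraries. At chr17:32528759-32528891 and chr17:32528708-32528900 within Cyp4f17, the PCN differences of -1.77 ± 0.95 and -1.54 ± 0.87 became -0.74 ± 0.65 and -0.59 ± 0.51. For atorvastatin the higher regions were near Cyp2a4 (chr7:26315585-26315767, 2.50 ± 0.94), in Cyp4f39 (chr17:32483158-32483340, 1.15 ± 0.44) and near Cyp4f17 (chr17:32503257-32503363, 1.70 ± 0.65), and without the 2 libraries 0.86 ± 0.77, 0.61 ± 0.33 and 0.98 ± 0.42. The regions of Cyp2a4 and Cyp4f39 have the width of atorvastatin 3, which was their highest library at 8.1 and 15.9 CPM. That of Cyp4f17 has the width of PCN 2, and atorvastatin 3 was highest there too, at 6.62 CPM. The lower ones were near Cyp2d11 (chr15:82385916-82386022, -2.29 ± 0.91; -1.08 ± 0.73 without the 2 libraries) and Cyp2s1 (chr7:25848173-25848311, -1.61 ± 0.79; -1.37 ± 0.65). In PCN against atorvastatin the same Cyp2d11 region was higher by 1.88 ± 0.89, another beside it (chr15:82385838-82385966) by 1.45 ± 0.85 and one in Cyp2w1 (chr5:139358649-139358787) by 0.76 ± 0.47; without the 2 libraries these were 1.42 ± 0.64, 1.04 ± 0.59 and 0.51 ± 0.31. The overlapping lower regions near Cyp19a1, of which chr9:54156400-54156582 had the smallest p, differed by -1.39 ± 0.65, -1.49 ± 0.76 and -1.30 ± 0.67, or -1.08 ± 0.37, -1.15 ± 0.44 and -1.09 ± 0.39 without the 2 libraries. The first was at 3.35, 5.10, 0 and 1.99 CPM in control, 7.49, 5.89, 6.56 and 5.29 CPM in atorvastatin and 3.95, 3.06, 2.91 and 0.857 CPM in PCN, with every PCN library below every atorvastatin library, 1 of the 9 regions of that kind.

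Per gene, all 16 tested regions of Cyp4f15 were above 0 with PCN (median 0.51; 17 of 17 and 0.27 without the 2 libraries), against 62% of all regions (51.3% without the 2 libraries), and its promoter was above 0 too. For Cyp26a1 it was 10 of 11 (median 1.05; 10 of 12 and 0.61), for Cyp21a1 12 of 13 (0.57; 13 of 13 and 0.69) and for Cyp2j11 18 of 18 (0.84; 17 of 18 and 0.50). Regions and promoter did not always lie on the same side: the promoter of Cyp2j11 was below 0, at -0.73 ± 0.62 (-0.61 ± 0.54 without the 2 libraries), in all 23 settings. For Cyp2d26, whose promoter was above 0 at 0.48 ± 0.27 (0.45 ± 0.24), 1 of 4 regions was (median -0.78; 1 of 4 and -0.17). For Cyp17a1 1 of 14 was above 0 with atorvastatin (median -0.36; 2 of 14 and -0.19 without the 2 libraries), against 58.4% of all regions (50.9%), beside a promoter with a difference of -0.63 ± 0.26. Regions of 1 gene overlap and share their libraries, so these counts are descriptions. Cyp1a1, Cyp2r1, Cyp20a1, Cyp2d22 and 12 other genes had regions but none with enough counts to be tested.

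Genes that P450 enzymes depend on were read the same way. Of 11 symbols on a list of electron donors and partner proteins, 10 were found, among them Fdx2 but not Fdx1l. With PCN 9 were above 0, with a median of 0.18, and 0 passed. The reductase Por was at 59.5 to 95.9 CPM in control, 76.0 to 108 CPM in atorvastatin and 67.8 to 103 CPM in PCN. Cyb5r3, which feeds cytochrome b5, was highest among them for PCN (0.34 ± 0.26) and Pgrmc2, a haem-binding membrane protein, lowest (-0.14 ± 0.26); with atorvastatin Fdx1, the mitochondrial ferredoxin, differed by 0.27 ± 0.22 and Pgrmc2 by -0.30 ± 0.26. In the fit of 10 libraries Cyb5r3 was at 0.26 and Fdx1 at 0.27, while Pgrmc2 was at -0.02 with PCN and -0.04 with atorvastatin. Of the 13 genes of haem synthesis and breakdown, 10 were above 0 with PCN (median 0.23) and 8 with atorvastatin (median 0.09), and 0 passed. Fech, which inserts iron into protoporphyrin to form haem, differed by 0.47 ± 0.24 and 0.45 ± 0.24 (0.31 and 0.39 without the 2 libraries). Blvra, which reduces biliverdin, differed by -0.26 ± 0.26 and -0.34 ± 0.26, and by 0.11 in both without the 2 libraries. Of the 18 genes on the regulator list, which includes Gc, 15 were above 0 with PCN (median 0.24) and 13 with atorvastatin (median 0.20). Of these genes 0 passed. Most genes of the 3 lists had means of at least 20 CPM. At that level 78.4% of all genes were above 0 with PCN and 63.2% with atorvastatin, so these counts lay near those of all genes. Without the 2 libraries the medians of the 3 lists were 0.13, 0.18 and 0.14 with PCN and 0.21, 0.14 and 0.18 with atorvastatin.

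Nr0b2, a corepressor induced by bile acids, had the smallest p of the regulators with PCN, with a difference of 0.58 ± 0.26 (edgeR, adjusted p = 0.918). Without the 2 libraries it was 0.54. Its promoter was at 65.8 to 82.3 CPM against 46.7 to 62.4 CPM in control, and 1.25% of all promoters had PCN wholly above control. Stat5a, which relays growth hormone signals, differed by 0.53 ± 0.26 with atorvastatin (0.56 without the 2 libraries). With PCN it differed by 0.58 ± 0.26 (0.46 without the 2 libraries), and its p there was nearly that of Nr0b2. Vdr, the vitamin D receptor, differed by -0.69 ± 0.51 with PCN and 0.03 without the 2 libraries. Nr1i2, the pregnane X receptor, differed by -0.53 ± 0.29 with atorvastatin and 0.03 without the 2 libraries, and control 3 was the highest at 85.9 CPM. In PCN against atorvastatin 7 of 10, 9 of 13 and 13 of 18 of the 3 lists were above 0, and 0 passed. Of all genes at 20 CPM or more, 75.5% were above 0. The medians of the lists were 0.05, 0.05 and 0.06, or -0.01, -0.01 and 0.03 without the 2 libraries. The genes of smallest p in each direction were Pgrmc1 (0.23 ± 0.24) and Cyb5r1 (-0.10 ± 0.24), Cpox (0.30 ± 0.27) and Alas1 (-0.13 ± 0.25), and Ahr (0.24 ± 0.23) and Ahrr (-0.33 ± 0.60). In the fit of 10 libraries these were 0.02 and -0.02, 0.07 and -0.26, and 0.08 and -0.21, in the same order.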

How the data were processed

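Expected counts per promoter and per enhancer region, deposited by the authors for 12 ATAC-seq libraries, are unnormalised values in steps of 0.5; they were rounded to whole numbers for the tests. The submitters' processing notes name, without roles, HOMER 4.10, bedtools 2.30.0, STAR 2.7.9a, Trimmomatic and mm10. The promoter window, the treatment of reads that fit several places, duplicate removal and any shift of reads for the transposase are not given in the sources used here. The enhancer regions fall into classes of width that follow single libraries. Of those near the P450 genes 16.9% have the width of atorvastatin 3, against 24.8% of all regions. How the regions were drawn is not given in the sources used here. Whether a library reads higher at regions of its own width was not tested. At chr2:170459898-170460080 near Cyp24a1, with the width of atorvastatin 3, that library was the lowest, at 12.3 CPM.

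Differences were tested with edgeR 4.0.16 (quasi-likelihood test, TMM scaling, filter at a minimum count of 10 and total of 15, group as the only term, 12 libraries in 1 fit) over all promoters or regions, with Benjamini-Hochberg adjustment at a threshold of 0.05. The pipeline was tested on simulated counts with an equal spread at all promoters and no libraries that stood apart. That test does not measure its power in these data. DESeq2 1.42.0, limma 3.58.1, other scalings, filters and sets of libraries, and the replicate number as a block were alternatives, 22 per comparison. R 4.3.3 and GenomicRanges 1.54.1 were used. CPM are unrounded counts divided by the library's table total, and groups were checked for overlap on these values. The fitted differences also use the TMM factors, 0.89 to 1.13 over the libraries, so small ones can differ in sign from the CPM. With PCN, Cyp46a1 and Cyp2d10 were above 0 in the fit although their CPM averaged lower than in control. All 59 promoters passed the filter on low counts. Same-numbered libraries correlated between -0.45 and 0.49 in their deviations from the group means, so the numbers were not taken as pairs.

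The P450 genes, role groups, pathway lists, cell type markers and tests were chosen with earlier results of these data known. Fold changes are named for the 5 promoters of smallest p in each direction of each comparison, the 3 such enhancer regions, and the gene of smallest p in each direction of each pathway list; levels are named for the 10 most accessible promoters, the 5 of widest spread and 30 genes chosen for their role. Genes named for groups that do not overlap, for their sign over the settings or for a low level, counts by level, Cyp2d13, Por, the regions of highest level and the per-gene region counts were chosen after their values were seen, as was the olfactory receptor background. Cyp2j7, Cyp2j11-ps, Cyp2j15-ps, Cyp4b1-ps1 and Cyp21a2-ps were on the role lists and not analysed here.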

Additional observations from a re-analysis of the deposited data

Results flagged for a closer look

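Among 135 groups of 4 libraries (45 named P450 promoters in 3 groups), 11 had a highest or lowest library farther from the others than Dixon's 95% critical value allows. Independent groups not chosen by their values would give about 1 in 20. Here the groups share 12 libraries, and some promoters were named for wide spread or small p, so that rate does not apply. The share over all promoters was not counted. Of the 11, 3 were atorvastatin 3 and 1 was control 3.

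In atorvastatin 3, Cyp26c1 was at 17.5 CPM with the nearest atorvastatin library at 8.58 CPM. Cyp27b1 was at 25.3 CPM there, with the nearest at 9.01 CPM. Cyp4v3 was low in it, at 13.7 CPM against 31.6 CPM or more in the rest of the group. In control 3 Cyp46a1 was at 90.4 CPM and the next control at 54.3 CPM. The olfactory receptor background was also highest in atorvastatin 3, and its part in these values was not tested.

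The other 7 came from libraries that correlated well with the rest. Cyp2d10 was at 42.4 CPM in PCN 2 (nearest 31.2 CPM), Cyp2d40 at 40.4 CPM in control 2 (nearest 32.0 CPM) and Cyp39a1 at 46.5 CPM in control 4 (nearest 34.6 CPM). Cyp4f14 was at 35.2 CPM in atorvastatin 2, where the nearest library had 29.5 CPM. Cyp2j5 was lowest in PCN 3 at 29.8 CPM, below 35.3 CPM or more elsewhere in PCN. Cyp2t4 was low in control 4 (4.17 CPM, nearest 12.0 CPM) and in atorvastatin 2 (4.43 CPM, nearest 8.66 CPM).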

How the results depend on the processing

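No P450 promoter or region near one was called in any comparison under any of the 22 alternatives. Over all promoters, leaving out control 3 and atorvastatin 3 gave 6 calls for PCN and 4 for atorvastatin in place of 0, and DESeq2 gave 1 for atorvastatin. Without these 2 libraries the P450 promoters above 0 numbered 21 for atorvastatin and 40 for PCN against atorvastatin; leaving out 1 library at a time gave 21 to 39 for the latter, with 39 when atorvastatin 3 was left out. Counted in these 10 libraries, a choice made after seeing the data, promoters without overlap numbered 5 lower for PCN, 3 higher and 5 lower for atorvastatin and 1 higher for PCN against atorvastatin, and 34 stood above the olfactory receptor background. The fit with the replicate block made 0 calls; the P450 promoters above 0 were then 29, 33 and 25 and the regions 72.8%, 58.6% and 61.1% for the 3 comparisons, and 5 of 12 libraries correlated best with their own number.

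Signs turned for a few single genes, and the cause was not tested. Without control 3 and atorvastatin 3, the log2 difference was 0.056 for Cyp11b1 (PCN against atorvastatin), 0.11 for Blvra and 0.034 for Vdr (PCN), and 0.11 for Blvra and 0.032 for Nr1i2 (atorvastatin). Leaving out 1 library at a time gave, for PCN against atorvastatin, -1.06 to 0.045 for Cyp11b1 (highest without atorvastatin 3), -0.0070 to 0.40 for Cyp2a12 (lowest without PCN 2) and -0.27 to 0.031 for Alas1 (highest without atorvastatin 4). For PCN against control it gave -0.47 to 0.073 for Blvra and -0.98 to 0.071 for Vdr, both highest without control 3. By limma-voom that of Blvra was 0.0045 with PCN, and with offsets by abundance that of Ahrr was 0.00571 in PCN against atorvastatin. Depth limits the low promoters most: in control 4 a count of 0 allows up to 1.79 CPM per promoter and 2.39 CPM per region.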
